A study of Mus musculus with 5 samples.

Results

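Striatal projection neurons are the output cells of the caudate-putamen, and 9 genes that mark them were followed here: Drd1, Drd2, Adora2a, Penk, Tac1, Pdyn, Ppp1r1b, Rgs9 and Pde10a. The genes were given as a list of names, and that list was drawn up with earlier results of these data known. All 9 were matched by mouse symbol to 1 Ensembl identifier each, out of 55573 identifiers in each count table, and all 9 were among the 23592 genes that passed the filter on low counts. The libraries were bulk RNA of the right hemisphere of C57BL/6 female mice that had received GL261 glioma cells, transduced with luciferase and mKate2, in the right caudate-putamen at 7 to 8 weeks of age, so the tumor was placed in the structure where these neurons lie. The 3 vehicle mice received a dilution buffer and the 2 UMBO mice ultrasound-mediated blood-brain barrier opening, on days 21 and 24, and tissue was taken 24 h after the last session. The labels describe each library as a different mouse. Whether vehicle mice were given microbubbles or a sham sonication is not given in the sources used here, both groups carried the tumor, and no hemisphere without a tumor was analysed here. The comparison sets gene expression in the tumor-bearing hemisphere after UMBO alone against that with vehicle.

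Projection neurons are GABAergic and fall into 2 classes. Direct pathway neurons carry the dopamine D1 receptor (Drd1), which raises cAMP, and make substance P from the precursor encoded by Tac1 and dynorphin from Pdyn. Indirect pathway neurons carry the dopamine D2 receptor (Drd2), which lowers cAMP, together with an adenosine receptor encoded by Adora2a, which raises it, and make enkephalin from Penk. Both classes share the phosphoprotein encoded by Ppp1r1b, an inhibitor of protein phosphatase 1 once protein kinase A has phosphorylated it, the G protein regulator Rgs9, which shortens receptor signals, and the phosphodiesterase Pde10a, which degrades cAMP and cGMP.

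Dopamine receptor genes and the signaling genes Rgs9 and Pde10a had lower values in the UMBO libraries, while values of the neuropeptide genes overlapped between the groups, and no difference passed the adjusted threshold. Levels are given in CPM, a gene's counts relative to its library's total, after TMM scaling, which adjusts for library composition. Pde10a was at 36.9% of the vehicle mean CPM, Rgs9 at 60.5%, Drd1 at 63.5% and Drd2 at 66.9%, and in these 4 genes both UMBO libraries lay below every vehicle library. Relative to summed pan-neuronal counts the log2 fold change was -0.97 for Pde10a, -0.12 for Rgs9, -0.09 for Drd1 and 0.03 for Drd2. Of these only Pde10a then had both UMBO libraries below every vehicle library, and the share of all genes is not given here for that scaling. With TMM scaling 11.4% of all genes tested had both UMBO libraries below every vehicle library. Another 11.5% had both above, which was the case for none of the 9. By edgeR's quasi-likelihood test 0 of the 9 genes passed an adjusted p under 0.05, where 0% of all genes passed. At an unadjusted p under 0.05 there were 2 of the 9, Pde10a and Rgs9, both lower, where 2.06% of all genes were lower and 5.3% higher at that level. The DESeq2 Wald test also gave an adjusted p under 0.05 to 0 of the 9, with 37 of all genes past that threshold. It gave an unadjusted p under 0.05 to the same 2 genes, where 3.08% of all genes were lower and 1913 of 23592 higher. In bulk tissue, fewer neurons and less RNA per neuron cannot be told apart.

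Across the 9 genes, 6 had a lower and 3 a higher fitted level, and their log2 fold changes had a median of -0.56, against 0.01 over all genes tested. The median was -0.26 without UMBO replicate 1, -0.66 without UMBO replicate 2 and -0.36 without vehicle replicate 2. The count of genes outside the vehicle range was 7 without UMBO replicate 2 (all below) and 7 without UMBO replicate 1 (4 below and 3 above). It was 6 without vehicle replicate 3. With a library left out any gene lies outside the range more easily, and the share of all genes was not computed for these settings. The count lower at an unadjusted p under 0.05 was 5 without vehicle replicate 3, where 0.933% of all genes were, and 3 without UMBO replicate 2, where 0.716% were. It was 1 without vehicle replicate 1 (0.475% of all genes), without vehicle replicate 2 (2.19%) and without UMBO replicate 1 (19.5%). When the libraries were scaled to the summed counts of 12 pan-neuronal genes, the median of the 9 was 0.08, while the median of all genes moved to 0.54. A sum gives most weight to the most abundant genes. The 12 had TMM-scaled log2 fold changes from -0.90 to 0.07, with a median of -0.29.

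**Figure D1:**
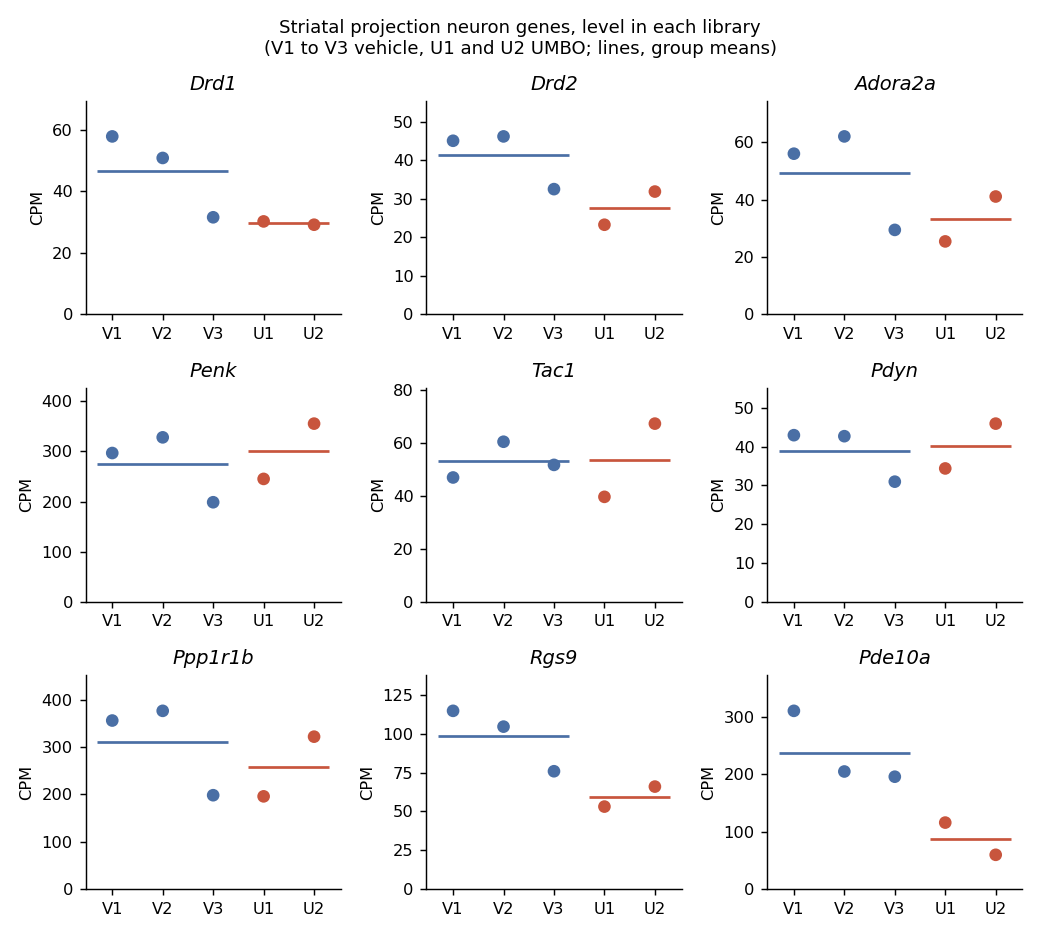
Level of each of the 9 genes in CPM (TMM-scaled) in vehicle replicates 1 to 3 (V1 to V3) and UMBO replicates 1 and 2 (U1, U2); dots are libraries and lines are group means. Both UMBO dots lie below every vehicle dot for Drd1, Drd2, Rgs9 and Pde10a, and the groups overlap for the other 5 genes.

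Promoter sequence is given for the 4 genes with both UMBO libraries below the vehicle range, and for Tac1, a peptide gene whose groups overlapped. They are the 250 bases before the RefSeq transcription start (GRCm38.p6), written 5′ to 3′ on the gene's strand: Drd1 at chr13:54055659-54055908 (reverse), Drd2 at chr9:49340153-49340402 (forward), Rgs9 at chr11:109298182-109298431 (reverse), Pde10a at chr17:8801495-8801744 (forward) and Tac1 at chr6:7554811-7555060 (forward). RefSeq promoters were found for 6 of the 9 genes, and Adora2a, Penk and Ppp1r1b had no entry. Where a gene has several, the one nearest to the GENCODE start is shown, which for Pde10a lies 276373 bases inside the GENCODE gene. Capitals mark matches on either strand to 6 short motifs. The TATA box was searched as TATAAA. The GC box, bound by Sp1-type factors, was searched as GGGCGG. The CCAAT box was searched by its own letters. The cAMP response element (CRE) was searched in full as TGACGTCA. The short CRE is the stretch TGACG, which also lies within the full CRE. The AP-1 site was searched as TGANTCA, where N is any base.
Drd1: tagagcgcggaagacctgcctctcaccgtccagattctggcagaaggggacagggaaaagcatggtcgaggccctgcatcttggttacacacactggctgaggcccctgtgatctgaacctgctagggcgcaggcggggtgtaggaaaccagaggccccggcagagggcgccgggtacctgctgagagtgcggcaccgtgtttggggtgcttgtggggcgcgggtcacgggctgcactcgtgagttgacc
Drd2: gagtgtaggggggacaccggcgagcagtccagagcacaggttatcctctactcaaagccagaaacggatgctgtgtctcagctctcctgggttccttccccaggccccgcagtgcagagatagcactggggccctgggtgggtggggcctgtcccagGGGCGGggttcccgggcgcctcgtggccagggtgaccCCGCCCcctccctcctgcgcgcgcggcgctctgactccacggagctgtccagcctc
Rgs9: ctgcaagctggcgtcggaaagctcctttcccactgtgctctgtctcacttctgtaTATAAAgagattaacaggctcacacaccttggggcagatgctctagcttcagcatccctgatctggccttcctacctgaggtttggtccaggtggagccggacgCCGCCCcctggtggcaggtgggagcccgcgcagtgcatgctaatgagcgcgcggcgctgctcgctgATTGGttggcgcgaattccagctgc
Pde10a: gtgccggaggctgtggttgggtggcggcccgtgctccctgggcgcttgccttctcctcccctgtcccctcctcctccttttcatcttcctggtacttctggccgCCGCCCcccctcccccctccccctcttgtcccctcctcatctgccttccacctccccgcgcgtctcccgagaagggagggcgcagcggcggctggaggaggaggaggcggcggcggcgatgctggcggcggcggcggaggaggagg
Tac1: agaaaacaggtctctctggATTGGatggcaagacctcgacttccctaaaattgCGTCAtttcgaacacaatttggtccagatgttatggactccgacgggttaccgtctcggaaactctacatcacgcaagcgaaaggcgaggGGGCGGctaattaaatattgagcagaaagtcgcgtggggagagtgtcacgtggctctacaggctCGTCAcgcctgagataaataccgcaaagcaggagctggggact

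The Drd1 window held none of these motifs. Drd2 held 2 GC boxes and Pde10a 1, and Rgs9 held a TATA box, a GC box and a CCAAT box. Tac1 held 2 short CREs, a GC box and a CCAAT box. None of these 5 windows held a full CRE or an AP-1 site. Of 32851 RefSeq promoters searched over the same 250 bases, 32.7% held a GC box, 33.8% a CCAAT box, 12.4% a TATA box, 17.8% a short CRE, 1.55% a full CRE and 6.75% an AP-1 site. A match is a match of letters and not a measured binding site.

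Among the receptors, Drd1 (ENSMUSG00000021478; chromosome 13, 54051183 to 54055705, reverse strand) was at 57.8, 50.8 and 31.6 CPM in vehicle replicates 1, 2 and 3, and at 30.2 and 29.2 CPM in UMBO replicates 1 and 2, the order used for all values that follow. The UMBO libraries were close to each other and just below vehicle replicate 3. Drd2 (ENSMUSG00000032259; chromosome 9, 49340627 to 49408177, forward strand) was at 45.1, 46.2 and 32.5 CPM with vehicle and at 23.3 and 31.9 CPM with UMBO. UMBO replicate 2 lay only just below vehicle replicate 3, and with scaling by library size alone neither Drd1 nor Drd2 was outside the vehicle range. The log2 fold changes were -0.65 (95% interval -1.34 to 0.03) for Drd1 and -0.58 (95% interval -1.17 to 0.01) for Drd2, with edgeR adjusted p of 0.497 for each. Adora2a (ENSMUSG00000020178; chromosome 10, 75316877 to 75334784, forward strand) was at 56.0, 62.0 and 29.5 CPM with vehicle and at 25.5 and 41.1 CPM with UMBO. Here the groups overlapped, since vehicle replicate 3 was below UMBO replicate 2, and the log2 fold change was -0.56 (95% interval -1.49 to 0.37). Leaving out UMBO replicate 1 gave -0.68 for Drd1, -0.37 for Drd2 and -0.26 for Adora2a, and leaving out UMBO replicate 2 gave -0.63, -0.82 and -0.95. Without vehicle replicate 2 Adora2a was at -0.36. Per pan-neuronal count the log2 fold changes were -0.09 for Drd1, 0.03 for Drd2 and 0.08 for Adora2a.

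The neuropeptide genes overlapped between the groups, and in each of them UMBO replicate 2 was the highest of the 5 libraries. Penk (ENSMUSG00000045573; chromosome 4, 4133531 to 4138819, reverse strand) was at 297, 328 and 199 CPM with vehicle and at 245 and 356 CPM with UMBO. Tac1 (ENSMUSG00000061762; chromosome 6, 7554879 to 7565834, forward strand) was at 46.8, 60.3 and 51.6 CPM with vehicle and at 39.5 and 67.2 CPM with UMBO. Pdyn (ENSMUSG00000027400; chromosome 2, 129686565 to 129699844, reverse strand) was at 43.0, 42.7 and 31.0 CPM with vehicle and at 34.4 and 45.9 CPM with UMBO. UMBO replicate 1 was the lowest library for Tac1 alone; for Penk and Pdyn vehicle replicate 3 was lowest. The log2 fold changes were 0.13 for Penk (95% interval -0.62 to 0.88), 0.01 for Tac1 (-0.64 to 0.66) and 0.05 for Pdyn (-0.51 to 0.61). These intervals are wide, and they do not show that the peptide genes kept their level. With UMBO replicate 2 left out the values were -0.16, -0.42 and -0.18 on the log2 scale.

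Ppp1r1b (ENSMUSG00000061718; chromosome 11, 98348404 to 98357796, forward strand) had 356, 377 and 198 CPM with vehicle and 196 and 322 CPM with UMBO. UMBO replicate 1 was close to vehicle replicate 3, and UMBO replicate 2 was near the other vehicle libraries. The log2 fold change was -0.26 (95% interval -1.18 to 0.66), -0.66 without UMBO replicate 2 and 0.05 without UMBO replicate 1, and it was 0.38 when scaled to pan-neuronal counts. Exons of Ppp1r1b share 460 bases with 1700003D09Rik on the opposite strand, and exons of Penk share 233 bases with A830012C17Rik on the opposite strand. The counting is not stated to use strand, so reads in these stretches could come from either gene.

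Rgs9 (ENSMUSG00000020599; chromosome 11, 109225355 to 109298129, reverse strand) was at 115, 105 and 76.0 CPM with vehicle and at 53.2 and 66.1 CPM with UMBO. Both UMBO libraries were below the lowest vehicle library, vehicle replicate 3. The log2 fold change was -0.73 (standard error 0.243, 95% interval -1.32 to -0.13, edgeR adjusted p 0.497). Leaving out single libraries gave values from -0.89 to -0.58, and scaling to pan-neuronal counts gave -0.12.

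Pde10a (ENSMUSG00000023868; GRCm38 chromosome 17, 8525372 to 8986648, forward strand) was at 311, 205 and 196 CPM with vehicle and at 116 and 59.6 CPM with UMBO. The highest UMBO library was well below the lowest vehicle library, and the UMBO libraries themselves were far apart. The log2 fold change was -1.44 (standard error 0.383, 95% interval -2.37 to -0.50), and edgeR's quasi-likelihood test gave p values of 0.00951 before and 0.497 after Benjamini-Hochberg adjustment. It ranged from -1.99 without UMBO replicate 1 to -1.03 without UMBO replicate 2, and it was -0.97 when scaled to pan-neuronal counts.

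**Figure D2:**
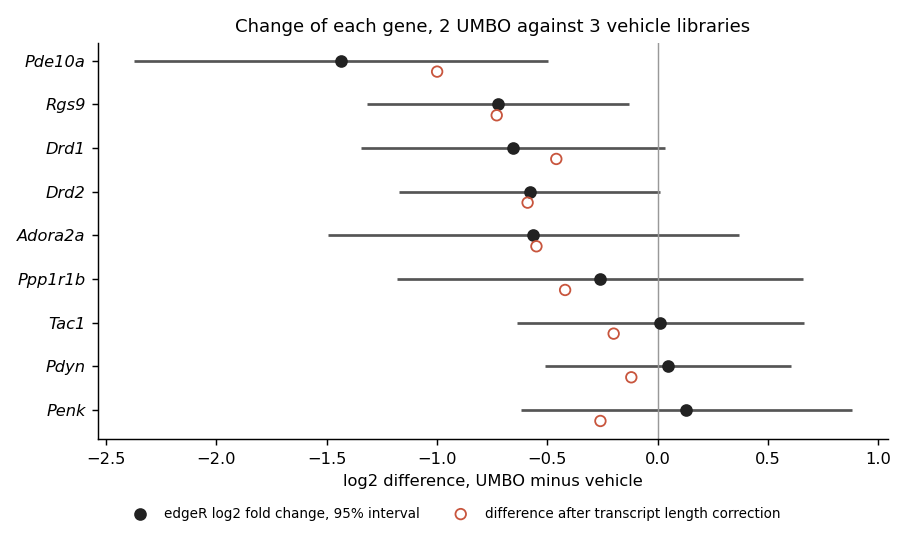
Filled points are the edgeR log2 fold changes of the 9 genes (UMBO minus vehicle, 2 against 3 libraries) with 95% intervals as bars, and open circles are the differences after the median of all genes of like transcript length was subtracted in each library. The intervals of Pde10a and Rgs9 lie below 0, those of the other 7 genes include 0, and the open circles of all 9 genes lie below 0; with pan-neuronal scaling 6 of the 9 fold changes were above 0.

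Between genes, levels were compared per kilobase of exon. In the vehicle libraries Penk had the highest level, at 168 ± 41.4 CPM per kilobase (SD, n = 3), followed by Ppp1r1b at 106 ± 33.4. The other 7 genes lay close together, in the order Pde10a (18.5 ± 4.98), Drd2 (16.2 ± 2.98), Adora2a (16.1 ± 5.66), Tac1 (15.6 ± 2.01), Rgs9 (15.4 ± 3.16), Pdyn (13.5 ± 2.37) and Drd1 (12.9 ± 3.75), and no neighbors among these 7 differed by more than their SD. Penk was above Ppp1r1b in all 5 libraries. In the UMBO libraries Penk (184 CPM per kilobase) and Ppp1r1b (88.4) were again highest, and Pde10a had the lowest mean, 6.83. That place rests on UMBO replicate 2, where Pde10a was at 4.64; in UMBO replicate 1 it was at 9.02, above Drd1 (8.33), Rgs9 (8.32) and Adora2a (8.31). This scale divides by all annotated exons of a gene, which can exceed its longest transcript; for Pde10a these are 12.8 kb and 7.77 kb.

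The direct and indirect pathway genes were compared within each library, where the scaling between libraries drops out. The mean log2 CPM of Drd1, Tac1 and Pdyn minus that of Drd2, Adora2a and Penk was -0.90, -0.95 and -0.64 with vehicle and -0.61 and -0.79 with UMBO. The groups overlapped, with -0.83 ± 0.17 (SD, n = 3) against -0.70 ± 0.13 (SD, n = 2). The difference of 0.13 was smaller than either SD (2-sided exact permutation test, p = 0.4, where 0.1 is the smallest p that 3 against 2 libraries allow). It ranged from 0.04 without UMBO replicate 1 to 0.22 without vehicle replicate 3 or UMBO replicate 2, and it was 0.07 without vehicle replicate 2. The sign was opposite for the receptors alone (Drd1 against Drd2 and Adora2a, -0.05, exact permutation p = 1) and for the peptides alone (Tac1 and Pdyn against Penk, -0.13, exact permutation p = 0.8). The direct set has more peptide than receptor genes and the indirect set the reverse. The 0.13 therefore also carries any difference between peptides and receptors, and is not a measure of pathway balance alone. The log2 ratio of Drd1 to Drd2 was 0.36, 0.14 and -0.04 with vehicle and 0.38 and -0.13 with UMBO. For this ratio the UMBO libraries held both the highest and the lowest value.

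The split between peptides and receptors was noticed only after the values had been seen, and it is given without a test. The mean log2 CPM of Penk, Tac1 and Pdyn minus that of Drd1, Drd2 and Adora2a was 0.68, 0.85 and 1.13 with vehicle and 1.41 and 1.61 with UMBO. Both UMBO libraries were above every vehicle library, by 0.63 on average. The signaling genes also differed among themselves. The log2 ratio of Pde10a to Ppp1r1b was -0.19, -0.88 and -0.01 with vehicle, -0.76 in UMBO replicate 1 and -2.43 in UMBO replicate 2, which stood apart from the other 4 libraries.

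**Figure D3:**
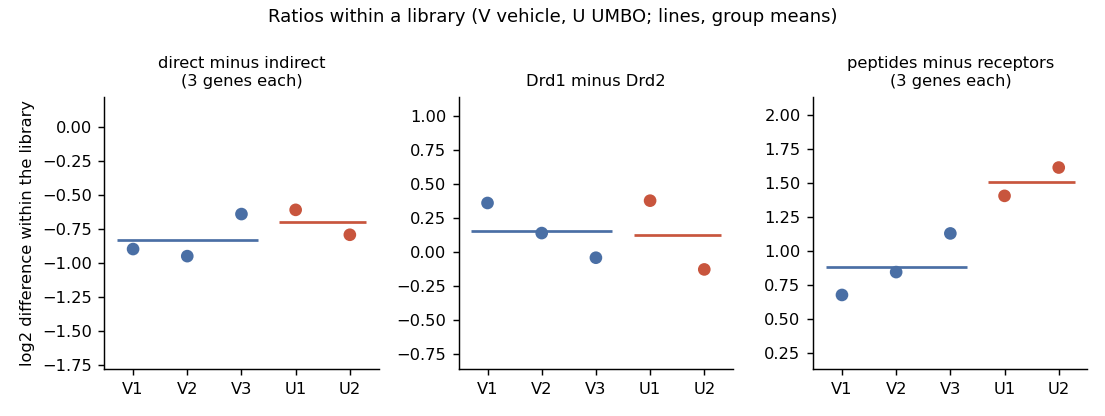
Within-library log2 differences between groups of genes in vehicle (V1 to V3) and UMBO (U1, U2) libraries; dots are libraries and lines are group means. Direct minus indirect and Drd1 minus Drd2 overlap between the groups, and peptides minus receptors lies at 1.41 and 1.61 in the UMBO libraries against 0.68 to 1.13 in the vehicle libraries.

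Transcript length moved with these levels. Over 12715 genes with a mean of at least 5 CPM, Spearman's correlation between the longest transcript of a gene and its log2 deviation from the vehicle mean was 0.38, -0.63 and 0.47 in vehicle replicates 1, 2 and 3, -0.30 in UMBO replicate 1 and -0.51 in UMBO replicate 2, across genes that share a library. In UMBO replicate 2 the median deviation of all genes was 0.71 for transcripts under 1.5 kb and -0.85 for those over 7.5 kb, whereas in UMBO replicate 1 it was 0.09 and -0.13. Penk, at 1.45 kb, has the shortest transcript of the 9 genes and Pde10a, at 7.77 kb, the longest. RNA quality per library was not used here, and its part was not tested.

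After the median of all genes in the same length bin was subtracted in each library, a correction chosen after the data had been seen, all 9 genes had a lower mean with UMBO. The differences on the log2 scale were -1.0 for Pde10a, -0.73 for Rgs9, -0.59 for Drd2, -0.55 for Adora2a, -0.46 for Drd1, -0.42 for Ppp1r1b, -0.26 for Penk, -0.20 for Tac1 and -0.12 for Pdyn. Both UMBO libraries were still below every vehicle library for Pde10a, Rgs9 and Drd2, but not for Drd1, where vehicle replicate 3 (-0.54) was below UMBO replicate 2 (-0.35). The share of all genes below the vehicle range after this correction was not computed. The peptides minus receptors difference shrank from 0.63 to 0.34 and the groups then overlapped, with -0.13, -0.21 and 0.33 for vehicle and 0.46 and 0.21 for UMBO, relative to the vehicle mean.

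**Figure D4:**
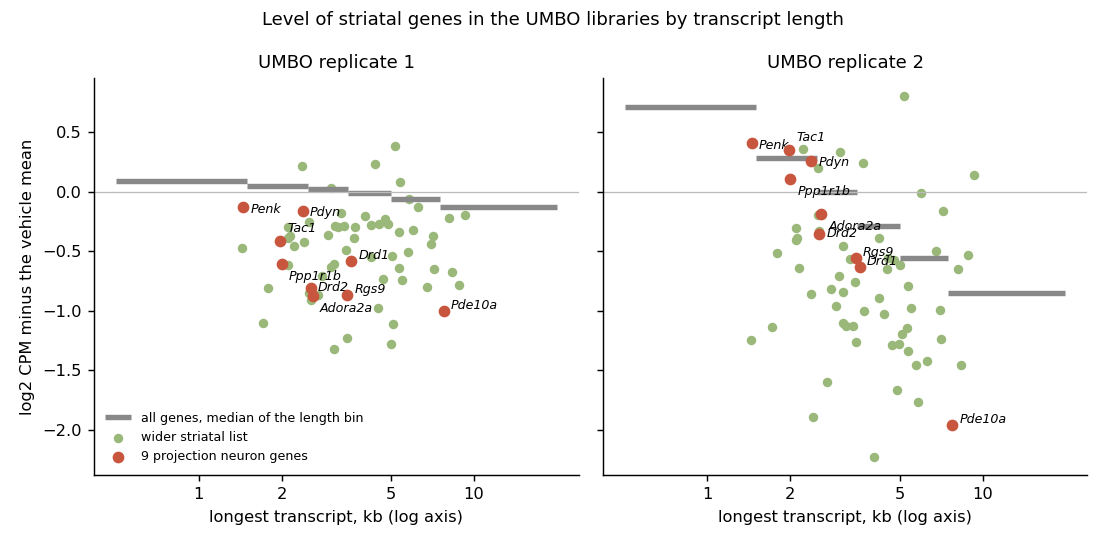
Log2 CPM minus the vehicle mean against the longest transcript of each gene (kb, log axis) in UMBO replicate 1 and UMBO replicate 2; red points are the 9 genes, green points the 57 genes of the wider striatal list and grey bars the median of all genes in each length bin. In UMBO replicate 1 the 9 genes lie below the bars, which stay between 0.09 and -0.13; in UMBO replicate 2 the bars fall from 0.71 to -0.85, and Tac1 is the only one of the 9 genes above its bar.

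A wider list of genes known from striatal projection neurons is set beside the 9, and 57 of its 58 genes were tested (Gpr52 was not analysed here). Fitted levels were lower with UMBO in 55 of the 57 and higher in 2, Rgs2 and Ikzf1. The median difference of the 57 was -0.66 on the log2 scale. At an unadjusted p under 0.05, 20 were lower and 0 higher, where 2.06% of all genes were lower and 5.3% higher. None of the 57 had an edgeR adjusted p under 0.05. Both UMBO libraries were below every vehicle library in 33 genes and above in 1, Ikzf1. Over all genes tested 11.4% were below and 11.5% above. Without vehicle replicate 1 there were 9 of the 57 lower at an unadjusted p under 0.05, where 0.475% of all genes were. The median was -0.84 without UMBO replicate 1 and -0.44 without UMBO replicate 2. Without UMBO replicate 2, 39 genes were below the vehicle range, where any gene lies more easily with 1 UMBO library. When scaled to pan-neuronal counts the median was -0.15, with 12 genes below the vehicle range, while the median of all genes moved to 0.54. At an unadjusted p under 0.05, 0 were then lower and 1 higher, where 0.284% of all genes were lower and 4136 of 23592 higher. The share of all genes below the vehicle range is not given here for this scaling or without UMBO replicate 2.

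For dopamine and cAMP signaling, 15 of 16 genes were lower and 13 had both UMBO libraries below the vehicle range (11.4% of all genes). Rasgrp2, an exchange factor for the small G protein Rap1, was at 61.7, 64.2 and 60.7 CPM with vehicle and at 36.2 and 42.9 CPM with UMBO, a log2 fold change of -0.65 (95% interval -1.05 to -0.25). Rasd2, a small G protein enriched in striatum, averaged 166 ± 33.5 CPM in the vehicle group (SD, n = 3) but 96.7 ± 5.03 in the UMBO group (SD, n = 2). Camk4, a calcium-dependent kinase, had 43.4 ± 16.7 CPM with vehicle and 18.2 ± 6.45 with UMBO. Ppp3ca, the catalytic subunit of calcineurin and the gene of this group with the highest level per length, had a log2 fold change of -0.43 (95% interval -1.29 to 0.42).

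All 15 receptor and channel genes were lower, 9 of them with both UMBO libraries below the vehicle range (11.4% of all genes). Scn4b, a sodium channel beta subunit, was at 315, 252.5 and 160.3 CPM with vehicle and at 96.2 and 96.3 CPM with UMBO. The UMBO libraries were almost equal and were below every vehicle library, with a log2 fold change of -1.33 (standard error 0.326). Oprk1, the receptor for dynorphin, had 19.0 ± 2.25 CPM with vehicle and 9.54 ± 2.57 with UMBO. Before adjustment edgeR gave Scn4b and Oprk1 p values of 0.00642 and 0.00726, and each had an adjusted p of 0.497.

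Of 16 transcription factors 15 were lower, 7 with both UMBO libraries below the vehicle range (11.4% of all genes). Meis2 was at 184, 148 and 131 CPM with vehicle and at 91.5 and 77.8 CPM with UMBO, a log2 fold change of -0.87 (95% interval -1.42 to -0.32). Foxp2 and Rarb, a retinoic acid receptor, had log2 fold changes of -0.65 and -0.74. Egr1, an activity-induced factor and the one with the highest level per length, had 182 ± 58.4 CPM with vehicle and 100.3 ± 15.9 with UMBO. Of the remaining 10 genes all were lower, led by p by Sh3rf2 (-1.21), Gprin3 (-1.07) and Actn2 (-0.70) on the log2 scale, and Spock3, the highest per length, was at -0.67.

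Other neuronal lists were compared with the 9 genes as medians of log2 CPM relative to the vehicle mean. For the 9 genes the medians were 0.24, 0.18 and -0.35 with vehicle and -0.61 and -0.19 with UMBO, so UMBO replicate 2 lay within the vehicle range. The wider striatal list was at 0.25, 0.00 and -0.22 with vehicle and at -0.43 and -0.81 with UMBO, below every vehicle library in both. Cortical excitatory neurons were at 0.48, -0.20 and -0.46 with vehicle and at -0.26 and -1.27 with UMBO, and pan-neuronal genes at 0.14, -0.04 and -0.11 with vehicle and at -0.05 and -0.55 with UMBO. UMBO replicate 1 was thus inside the vehicle range for cortical and pan-neuronal genes and below it for the striatal lists, and UMBO replicate 2 was below it for all of these but the 9 genes. Whether the striatal lists differ from the other neuronal lists was not tested. Snap25, a synaptic protein and the most abundant pan-neuronal gene, was at 3214, 1923 and 1948 CPM with vehicle and at 1856 and 824.5 CPM with UMBO.

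Thalamic genes lay between -0.06 and 0.00 with vehicle and at -0.07 and -0.49 with UMBO, and striatal interneuron genes between -0.01 and 0.09 with vehicle and at -0.03 and -0.30 with UMBO, so in both of these lists each UMBO library was below every vehicle library, UMBO replicate 1 only just. Choroid plexus genes lay between -0.20 and 0.34 with vehicle and at -0.09 and -0.89 with UMBO. Among interneuron genes Sst, for somatostatin, had 106 ± 7.46 CPM with vehicle and 114 ± 1.45 with UMBO. The dopamine neurons that innervate the striatum lie in the midbrain, and their genes were at -1.14, 0.21 and 0.76 with vehicle and at 0.95 and -0.67 with UMBO. In that list Slc6a3, their dopamine transporter, was at 0.348, 5.34 and 12.2 CPM with vehicle and at 12.3 and 0.565 CPM with UMBO (a gene named after its values were seen). The libraries thus differed widely in midbrain transcripts within both groups, and the part of dissection in the striatal levels was not tested.

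Of the lists for cells other than neurons, those for proliferation, microglia and macrophages, and endothelial cells moved with the groups. Proliferation genes were at -0.23, 0.92 and -0.63 with vehicle and at 1.06 and 2.91 with UMBO. All 10 were higher at an unadjusted p under 0.05, where 5.3% of all genes were. Microglia and macrophage genes were at -0.40, 0.38 and -0.01 with vehicle and at 0.62 and 1.15 with UMBO, with 5 of 8 higher at that level. Endothelial genes were at -0.30, 0.18 and 0.13 with vehicle and at 0.54 and 0.81 with UMBO, also with 5 of 8. No gene of these lists had an edgeR adjusted p under 0.05. The medians of the oligodendrocyte and astrocyte lists did not separate the groups. Oligodendrocyte genes lay between -0.09 and 0.06 with vehicle and at 0.05 and -0.11 with UMBO. Astrocyte genes were at -0.17 to 0.23 with vehicle and at 0.25 and -0.55 with UMBO. Single astrocyte genes differed from that median: 4 of the 8 had a lower and 4 a higher fitted level. Both UMBO libraries were above every vehicle library in 2 of the 8 (11.5% of all genes) and below in 0 (11.4%). Gfap, named after its values were seen, was at 214, 515 and 388 CPM with vehicle and at 1396 and 1636 CPM with UMBO. Drd2, Adora2a and Ppp1r1b were highest in vehicle replicate 2, with proliferation genes at 0.92. Drd1, Rgs9 and Pde10a were highest in vehicle replicate 1, at -0.23, and Penk, Tac1 and Pdyn in UMBO replicate 2, at 2.91. Vehicle replicate 3, with the lowest proliferation level, had the lowest vehicle level of 8 of the 9 genes. The part of tumor share in the striatal levels was not tested.

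**Figure D5:**
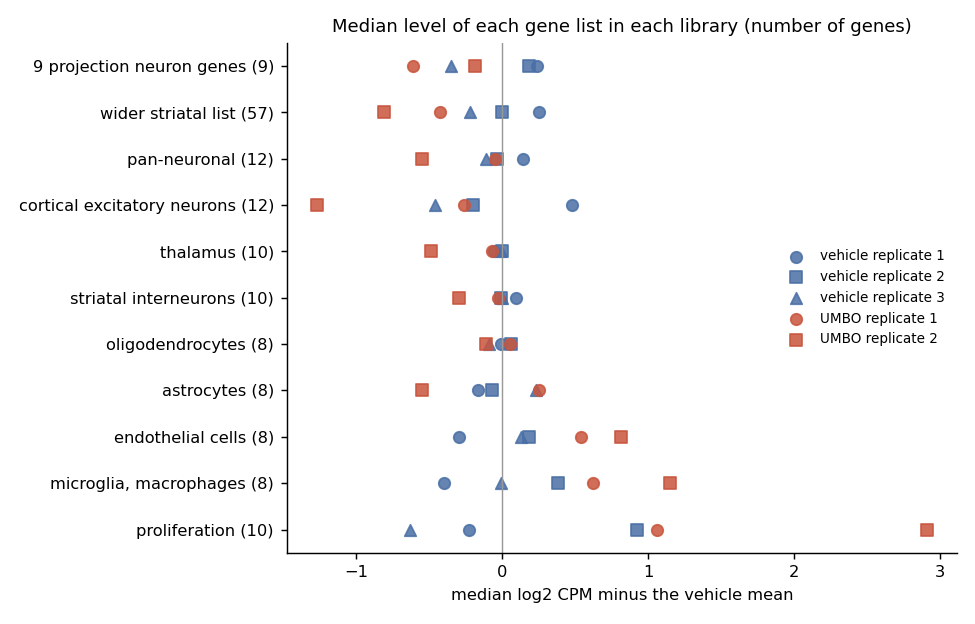
Median log2 CPM minus the vehicle mean for each gene list (number of genes tested) in the 3 vehicle libraries (blue) and 2 UMBO libraries (red). Both UMBO points lie below the vehicle points for the wider striatal, thalamic and striatal interneuron lists and above them for endothelial cells, microglia and macrophages, and proliferation; for the 9 genes UMBO replicate 2, at -0.19, lies within the vehicle range.

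Of 12713 other genes with a mean of at least 5 CPM, those whose centered log2 CPM lay closest to the mean of the 9 genes across the 5 libraries were Myh7b, Serpina9, Rxrg, Cdc42ep3 and Dusp1, at root mean square distances of 0.061 to 0.083. Rxrg, a retinoid X receptor, is in the wider striatal list. The mean pattern of the 9 was 0.38, 0.36 and -0.21 with vehicle and -0.43 and -0.11 with UMBO. Of the 9 genes themselves Drd2 was closest to it, at 0.087, and Pde10a farthest, at 0.679. Among the 200 closest genes 13 were from the wider striatal list, of which 55 genes were compared. With 5 libraries many genes share a pattern, and this likeness is a description.

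Libraries held 59736771 to 86164159 counts in total, and each of the 9 genes had at least 1910 reads in every library. Every pair of libraries differed by more than counting noise: chi-square divided by the number of genes was 55.9 in the closest pair and 702.8 in the farthest. UMBO replicate 2 stood apart from the others, with the largest chi-square against each of them.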

How the data were processed

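RNA-seq covered 5 mice with GL261 tumors, 1 right hemisphere each; the study's methods describe 6 mice, and the sixth is not analysed here. Per the labels and the methods of the study, the authors mapped reads with STAR 2.7.2a to GRCm38 and deposited raw counts per Ensembl gene, 1 table per library, without normalization. The annotation release and the strand setting are not given in the sources used here. Sample titles gave the group and the replicate number. Symbols, positions and lengths are from GENCODE M21 (GRCm38), which held 55480 of 55573 identifiers; those without a symbol took at most 0.00173% of a library's counts.

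Counts were filtered with filterByExpr, scaled by TMM and tested over 23592 genes in edgeR (version 4.0.16, under R 4.3.3) by quasi-likelihood, with p-values adjusted after Benjamini and Hochberg and called under 0.05. Dispersion, common to all genes, was 0.1181, and a prior count of 2 was used for log2 CPM. Standard errors were the log2 fold change divided by the root of the quasi-likelihood F, and intervals used its degrees of freedom. Lengths were the union of exons for levels per kilobase and the longest transcript for the length bins. DESeq2 1.42.0 was an alternative, as were other scalings and filters, the replicate number as a block and each library left out. The functions were tested on simulated data. The members and gene lists were chosen with earlier results of these data known. Genes named beside the 9 mostly followed a rule. Per part of the wider list they were the 3 with the smallest p and the one highest per length. The 5 closest in pattern and the most abundant gene of each other list were also named. Rgs2, Ikzf1, Gfap and Slc6a3 were named after their values were seen. One gene that the rule names is not reported here. The most abundant genes of the lists not described singly were Camk2a, Prkcd, Nr4a2, Ttr, Mbp, Slc1a2, Csf1r, Flt1 and Top2a.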

Additional observations from a re-analysis of the deposited data

How the results depend on the processing

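The median of the 9 log2 fold changes kept its sign under every alternative run except scaling to pan-neuronal counts, where it was 0.0776; the wider striatal list was then at -0.147, 1 of the 9 genes had an unadjusted p under 0.05 and 1 lay outside the vehicle range. That scaling reversed Drd2 (0.03), Adora2a (0.08) and Ppp1r1b (0.38). The gene with an unadjusted p under 0.05 was Pde10a, which was lower, where 0.284% of all genes were. With library size only, 2 genes lay outside the vehicle range, and the median of all genes moved from 0.01 to 0.13. The share of all genes outside that range is not given here for these 2 scalings. With no filter on low counts, 4 genes had an unadjusted p under 0.05, all lower, and Tac1 was at -0.02. Of all 40435 genes then tested 2.83% were lower and 2954 genes higher at that level. Subtracting the medians of length bins, added after the data were seen, put Tac1 at -0.20, Pdyn at -0.12 and Penk at -0.26. The cause was not tested for these changes.

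When single libraries were dropped, the number of the 9 genes with an adjusted p under 0.05 was 0 to 1 (Pde10a without UMBO replicate 1, adjusted p 0.04 in edgeR, where 1929 genes passed as lower and 2455 as higher), with an unadjusted p under 0.05 it was 1 to 5, and outside the vehicle range 4 to 7. Tac1 then ran from -0.42 to 0.34 on the log2 scale, Pdyn from -0.18 to 0.24, Penk from -0.16 to 0.37 and Ppp1r1b from -0.66 to 0.05. Where UMBO has 1 library, that library is assumed to vary as the vehicle libraries do. With fewer libraries any gene also lies outside the vehicle range more easily.

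The direct to indirect difference, 0.13, was -0.201 from summed CPM per kilobase, -0.052 from receptors and -0.128 from peptides. The summed values were -2.29, -2.36 and -2.06 with vehicle and -2.39 and -2.48 with UMBO (2-sided exact permutation test, p = 0.2). Both UMBO libraries thus lay below every vehicle library on that scale. Penk, with the highest level per kilobase, weighs most in that sum. With the replicate block, 5 of the 9 genes had an adjusted p under 0.05 and 5 an unadjusted p under 0.05 in edgeR (Drd1, Drd2, Adora2a, Rgs9 and Pde10a), among 2337 genes of all tested, and Tac1, Pdyn and Penk were at -0.04, -0.11 and -0.08. The labels tie no number to a litter, batch or day, and only numbers 1 and 2 occur in both groups (correlations of deviations 0.453 and 0.76, which are not independent because the deviations of 2 UMBO libraries are exact opposites), so the samples share a number and are not treated as pairs.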
